A study of Mus musculus with 6 samples.

Results

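The genes described here are 36 members of the insulin, PI3K, AKT and mTOR pathway, a set chosen by gene symbol that runs from the insulin receptor to mTOR and the traffic of the glucose carrier GLUT4. All 36 symbols were found once each among the 54532 genes of the deposited count table, and all 36 were among the 14973 genes that passed the filter on low counts. RNA was sequenced from gastrocnemius, a calf muscle made mostly of fast fibres, of C57BL/6J mice aged 3 months. The 3 libraries labelled Ctrl carried the genotype Mck cre, a Cre recombinase driven by the muscle creatine kinase promoter. The 3 libraries labelled MP carried Mck cre together with a transgene labelled Tg Glut1-Hk2-Pfkfb3, named for a glucose carrier, a hexokinase and the enzyme that makes the activator of phosphofructokinase. Doxycycline at 0.2% was in the drinking water of both groups from the age of 4 weeks, so the groups shared the driver and the drug and differed by the transgene label.

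Insulin binds a receptor tyrosine kinase, which phosphorylates the adaptors IRS1 and IRS2, and these recruit PI3-kinase to make a membrane lipid that brings AKT to PDK1 for activation. AKT restrains the kinase GSK3, keeps FOXO transcription factors out of the nucleus, blocks the TSC complex so that RHEB can switch on mTOR complex 1, and inhibits the RAB regulators TBC1D1 and TBC1D4 so that GLUT4 vesicles reach the muscle membrane. In muscle this pathway is known for setting glucose uptake, glycogen storage and the balance of protein synthesis and breakdown. Many of these steps act through phosphorylation, which RNA counts do not measure.

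Promoter sequence is shown for the members whose windows held a searched motif, because both IRS adaptor genes were among the members with every library labelled MP below every library labelled Ctrl, and Akt1 was among those with every library labelled MP above. RefSeq windows of build GRCm38.p6, from 250 bases before to 50 after a gene start, were found for 30 of the 36 members, 38 windows in all. The E-box CACGTG, a core letter run of basic helix-loop-helix leucine zipper factors such as USF, TFE3 and the glucose-sensing MondoA and ChREBP, reads the same on both strands. It occurred in 3 of the 38 windows, those of Irs1, Irs2 and Rheb, or 7.89%, against 7.15% of all 32851 windows. The FOXO element GTAAACA, searched on both strands, occurred in 1 of 38 windows, the more distant of the pair of windows of Akt1, against 3.65% of all windows. The cyclic AMP element TGACGTCA occurred in 0 of the 38 and in 1.79% of all windows, and no member window held more than 1 kind of motif. Each stretch is written 5′ to 3′ on the gene's strand, the minus strand for all 4 genes, with the motif in capitals.
Irs1, chr1:82291512-82291591: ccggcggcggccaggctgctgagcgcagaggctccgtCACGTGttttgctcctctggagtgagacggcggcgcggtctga
Irs2, chr8:11008931-11009010: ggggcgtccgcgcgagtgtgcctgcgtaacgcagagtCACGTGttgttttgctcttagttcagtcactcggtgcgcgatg
Rheb, chr5:24842415-24842494: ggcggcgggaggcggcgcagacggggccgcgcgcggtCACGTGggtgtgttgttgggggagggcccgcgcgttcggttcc
Akt1, chr12:112675002-112675082: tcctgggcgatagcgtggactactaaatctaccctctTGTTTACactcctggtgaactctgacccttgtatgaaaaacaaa
The E-box began 115 bases before the start of Irs1, 44 before that of Irs2 and 96 before that of Rheb, and the FOXO element 161 before that start of Akt1. Around the E-box Irs1 and Irs2 shared a run of 10 letters, GTCACGTGTT, and each shared 8 letters, GTCACGTG, with Rheb. These runs include the motif itself, which all 3 windows hold by selection, and runs shared among other E-box windows were not counted. A match is a run of letters and was not tested as a binding site. Rheb overlapped between the groups, and no E-box was found for Gsk3a, Akt1s1, Rps6kb1 or Tbc1d1, which also lay below. Foxo4 and Rps6kb2 lay below too, but had no window and were not searched. A link between motif and direction was not tested.

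The libraries held 19546456 to 24665024 counts, and single members had from 36 to 12024 counts in a library. Whether each library is a separate animal is not stated, so the p-values measure the spread between these libraries, which may be technical. Defining muscle fibre genes were abundant throughout, the 10 fibre markers summing to 110800 to 162090 CPM, counts scaled to the size of the library. By group mean, 2 of these 10 were higher in the libraries labelled MP. The genes that the transgene is named for were not higher as a set in the libraries labelled MP. Pfkfb3 had 579, 1096 and 1585 CPM in Ctrl 1, 2 and 3 and 120.1, 476 and 542 CPM in MP 1, 2 and 3, all of the latter lower. Hk2 had 156, 165 and 187 CPM against 341, 168 and 182 CPM, high in MP 1 alone, and Slc2a1, which encodes GLUT1, had 12.8, 23.3 and 12.0 CPM against 13.5, 9.60 and 8.05 CPM. Their log2 fold changes were -1.52 ± 0.57 (SE) for Pfkfb3, 0.44 ± 0.27 for Hk2 and -0.63 ± 0.31 for Slc2a1, with edgeR adjusted p-values of 0.196, 0.381 and 0.290. Whether these counts include transcripts of the transgene was not tested, since its sequence was not used here, so the labels are not checked by these genes. Every direction below is therefore drawn between libraries by their labels. The library labelled Ctrl 1 stood apart, its 8 B cell markers summing to 541 CPM against 6.94 to 56.7 CPM in the other 5, and its 9 T and NK cell markers to 152 CPM against 1.04 to 6.69 CPM. The library labelled MP 1 had the highest sum of 8 endothelial markers, 715 CPM against 296 to 404 CPM elsewhere. It also stood apart in single fibre markers, with Myh1 at 9413 CPM against 2811 to 4090 CPM elsewhere. Its Pvalb was at 3036 CPM against 6690 to 9611 CPM. Results are given with all 6 libraries, and without Ctrl 1 where that changes a call or moves a named member's value far.

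At an adjusted threshold of 0.05 none of the members passed the quasi-likelihood test of edgeR, and limma-voom called 0 as well. Of all genes tested 1.3% passed in edgeR, 0.788% higher and 0.508% lower in the libraries labelled MP. These shares are 118 genes higher and 76 lower, and with scaling by library totals alone they were 205 and 54. At an unadjusted p of 0.05, 4 members were higher, Grb10, Pik3r2, Akt1 and Mtor, and 7 lower, 11 of 36, where 20.8% of all genes were below that level, 10.5% higher and 10.3% lower. DESeq2 called 1 member higher, Akt1, and 5 lower, Irs1, Irs2, Foxo4, Akt1s1 and Tbc1d1, against 7.11% of all genes, 3.89% higher and 3.22% lower. Without Ctrl 1 edgeR called 1 higher, Akt1, and 7 lower, Irs2, Foxo1, Foxo4, Gsk3b, Tsc1, Akt1s1 and Tbc1d1, against 13% of 15278 genes, 5.91% higher and 7.06% lower. In whole muscle, fewer cells of a type and less RNA per cell cannot be told apart.

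The median log2 fold change of the 36 was -0.03, as was that of all genes tested, with 15 positive and 21 negative. Every library labelled MP lay above every library labelled Ctrl in 5 members, Grb10, Pik3r2, Akt1, Phlpp1 and Mtor, and below in 8, Irs1, Irs2, Gsk3a, Foxo4, Akt1s1, Rps6kb1, Rps6kb2 and Tbc1d1. That is 13 of 36 members, where 27.4% of all genes did not overlap, 13.8% above and 13.6% below. Scaling by library totals moved the median of all genes by 0.147 on the log2 scale. With it 9 members lay above and 4 below, where the shares of all genes were 18.6% above and 7.59% below. Akt1, Mtor, Grb10 and Phlpp1 were still above, joined by Insr, Grb14, Pdpk1, Tsc2 and Tbc1d4, and Irs2, Foxo4, Akt1s1 and Tbc1d1 were still below.

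**Figure D1:**
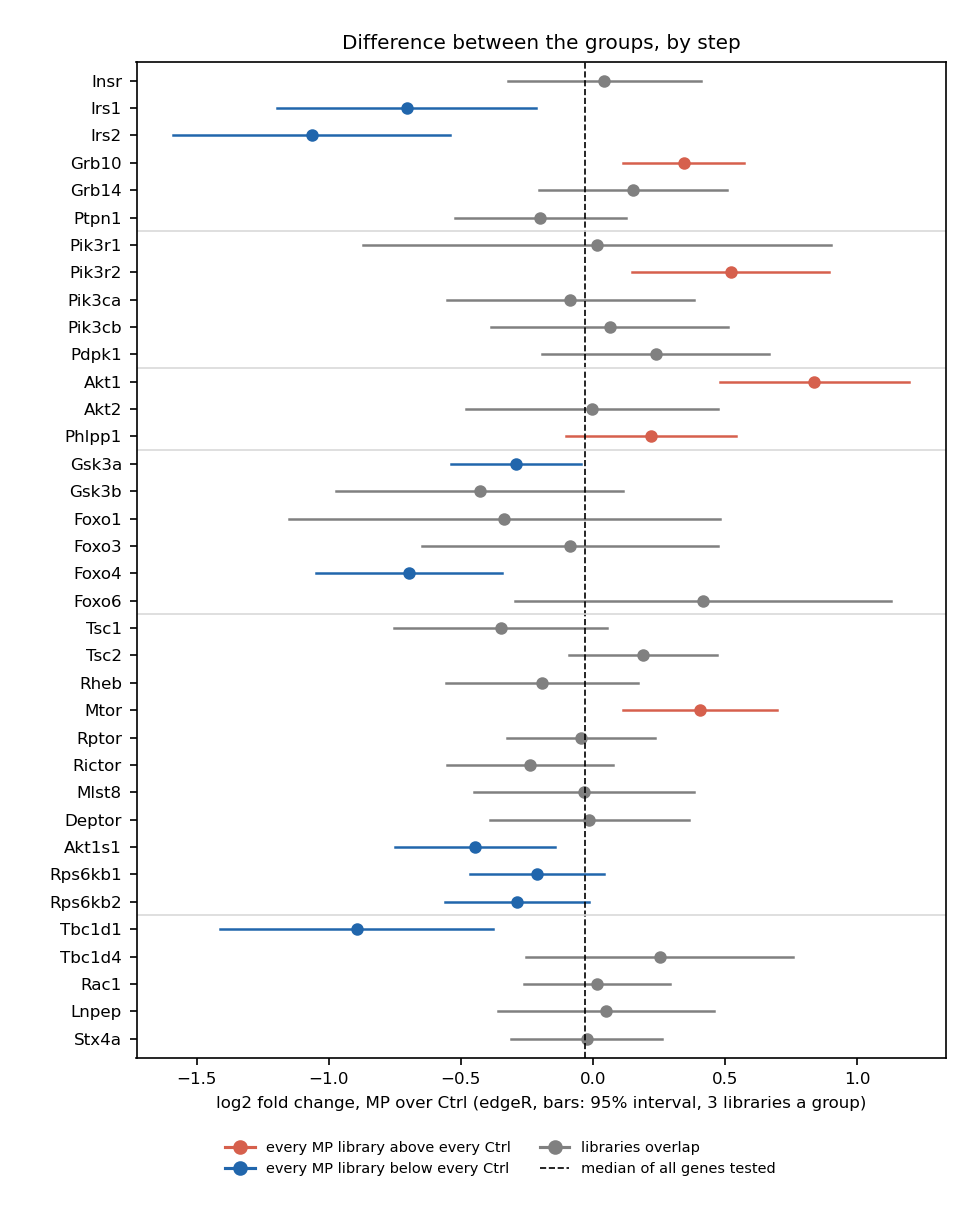
The log2 fold change of each of the 36 members in the libraries labelled MP over those labelled Ctrl, with its 95% interval from edgeR (3 libraries a group), ordered by step of the pathway. Colours mark whether the libraries of the groups overlap, and the dashed line is the median of all genes tested at -0.03, with Irs2 the lowest member at -1.06 and Akt1 the highest at 0.84.

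At the level of the receptor, Insr itself, the insulin receptor, differed little by label, at 136, 196 and 189 CPM in Ctrl 1, 2 and 3 and 181, 172 and 185 CPM in MP 1, 2 and 3. Its lowest library was Ctrl 1 and the groups overlapped, with a log2 fold change of 0.04 (95% interval -0.32 to 0.41), which was -0.11 without Ctrl 1. With scaling by library totals every library labelled MP lay above. The adaptor Irs2 (ENSMUSG00000038894, GRCm38 chromosome 8, 10984681 to 11008458), which couples the receptor to PI3-kinase, had 77.9, 117 and 73.8 CPM in the libraries labelled Ctrl and 37.4, 37.3 and 53.8 CPM in those labelled MP. All 3 libraries labelled MP were below all 3 labelled Ctrl, at a mean of 42.8 ± 9.48 against 89.6 ± 23.9 CPM (SD, n = 3 each). The level was 2.09-fold lower, a log2 fold change of -1.06 ± 0.23 with a 95% interval of -1.59 to -0.54. It did not pass with all libraries (edgeR adjusted p = 0.0724) and passed without Ctrl 1 (0.0255).

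Irs1 (ENSMUSG00000055980, chromosome 1, 82233101 to 82291416), the other main adaptor of muscle, had 34.1, 28.0 and 43.3 CPM in the libraries labelled Ctrl and 24.4, 16.5 and 23.7 CPM in those labelled MP. These also did not overlap, though they did with scaling by library totals, and the log2 fold change of -0.70 ± 0.21 did not pass (adjusted p = 0.133). Of its exon bases, 30.9% lie opposite Gm9747, which had 0 counts in every library. Summed per length, Irs1 and Irs2 came to 15.9, 21.6 and 16.4 FPKM in the libraries labelled Ctrl and to 8.5, 7.71 and 11.2 FPKM in those labelled MP. The sum lay in separate ranges by label, a description made after the values were seen, while the share of Irs1 in it, 14.2% to 28.8% against 23.4% to 31.1%, overlapped.

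Grb10, an adaptor that binds the active receptor and dampens its signal, had 42.0, 39.9 and 41.1 CPM in the libraries labelled Ctrl and 51.6, 53.3 and 51.3 CPM in those labelled MP. The libraries within each label were close together and the groups apart, but the difference was small, 1.27-fold (log2 fold change 0.34 ± 0.10, adjusted p = 0.123). Its relative Grb14, another receptor inhibitor, ranged from 9.93 to 12.5 CPM and from 11.4 to 13.2 CPM and overlapped. Ptpn1, the phosphatase PTP1B that removes phosphate from the receptor, overlapped as well, with a log2 fold change of -0.20 ± 0.14.

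**Figure D2:**
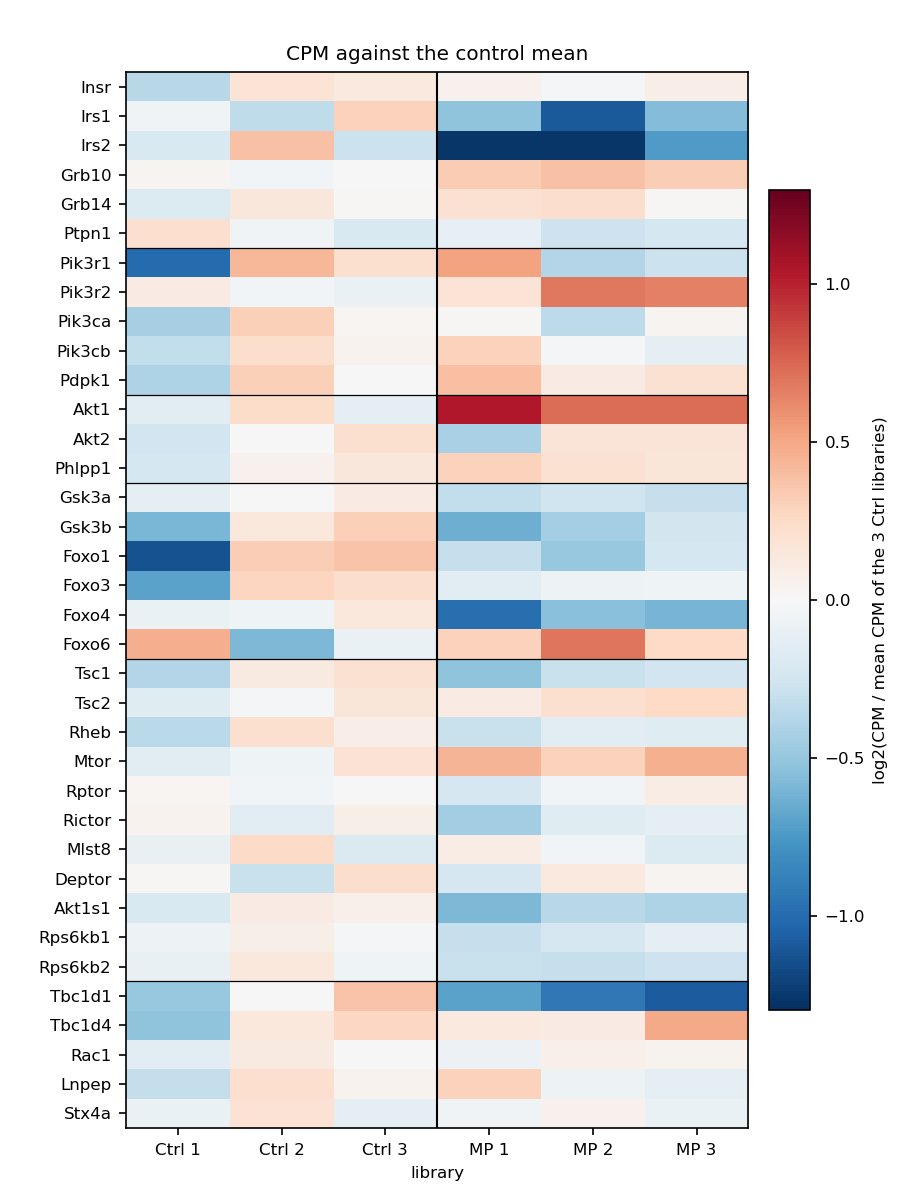
Colour gives, for each member (rows, by step) and library (columns), the log2 ratio of its CPM to the mean CPM of the 3 libraries labelled Ctrl, red above and blue below. Irs2, Foxo4 and Tbc1d1 are blue and Akt1 red in all 3 libraries labelled MP, and Ctrl 1 is the lowest library for 16 of the 36 members, Pik3r1 and Foxo1 among them.

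Among the PI3-kinase subunits, Pik3r1, the main regulatory subunit p85 alpha, was the member with the widest interval. It had 61.6, 165 and 142 CPM in the libraries labelled Ctrl and 176, 94.5 and 101 CPM in those labelled MP. Ctrl 1 was the lowest library and MP 1 the highest, so the libraries of each label were spread over the same range, and the log2 fold change was 0.01 (interval -0.87 to 0.90), or -0.31 ± 0.26 without Ctrl 1. Pik3r2, the regulatory subunit p85 beta, had 29.0, 26.3 and 25.3 CPM against 30.4, 43.1 and 42.2 CPM. The groups did not overlap, with MP 1 just above Ctrl 1, and did with library totals, and the log2 fold change of 0.52 ± 0.16 did not pass (adjusted p = 0.138).

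The catalytic subunits differed less by label than Pik3r2. Pik3ca, p110 alpha, the main insulin-responsive catalytic subunit, had a log2 fold change of -0.09 (interval -0.55 to 0.38), and Pik3cb, p110 beta, one of 0.06 (-0.38 to 0.51). Pdpk1, the PDK1 kinase that phosphorylates AKT, had 54.8, 89.5 and 72.9 CPM against 94.8, 77.9 and 83.3 CPM and overlapped, with a log2 fold change of 0.24 ± 0.18. Without Ctrl 1 that of Pdpk1 was 0.07, that of Pik3ca -0.26 and that of Pik3cb -0.08. Ctrl 1 was the lowest library for Pik3r1, Pik3ca, Pik3cb and Pdpk1 alike.

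Akt1 (ENSMUSG00000001729, chromosome 12, 112653821 to 112674884), the AKT kinase best known for growth, was the member with the largest positive difference. It had 62.4, 82.0 and 63.5 CPM in the libraries labelled Ctrl and 142, 115 and 115 CPM in those labelled MP, with every library labelled MP higher. The means were 69.3 ± 11.04 and 124 ± 15.8 CPM (SD, n = 3 each), a 1.79-fold difference. The log2 fold change of Akt1 was 0.84 ± 0.15, interval 0.48 to 1.197, and missed the threshold narrowly in edgeR (adjusted p = 0.0518). The adjusted p was 0.0483 with median-of-ratios scaling, 0.0276 without Ctrl 1 and between 0.0929 and 0.227 without each of the other libraries.

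Akt2, the isoform best known for insulin-stimulated glucose uptake, was the more abundant AKT per length and had 359.7, 429.6 and 494 CPM against 319, 479.7 and 482 CPM. Its libraries overlapped fully, with a log2 fold change of -0.00 (interval -0.48 to 0.48). The share of Akt1 in the FPKM of Akt1 and Akt2 together was 23.2%, 24.9% and 18.3% in the libraries labelled Ctrl. In those labelled MP it was 43.7%, 29.4% and 29.4%, with MP 1 the highest. The log2 ratio of Akt1 to Akt2 differed by 0.86 between the groups without overlap (two-sided exact permutation p = 0.1, the smallest that 3 against 3 allows, and 0.240 adjusted over 12 such pairs). Phlpp1, a phosphatase that turns AKT off, lay between 17.7 and 23.1 CPM against 23.3 to 25.6 CPM, a log2 fold change of 0.22 ± 0.14, or 0.11 ± 0.12 without Ctrl 1.

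Markers of several other cell types moved with the label beside the values of Akt1 and the other members without overlap, and not all in 1 direction. The 8 endothelial markers were higher by group mean in 8 of 8 in the libraries labelled MP, with sums of 296 to 404 CPM against 376 to 715 CPM. The 8 fibro-adipogenic progenitor markers were higher in 8 of 8, at 728 to 1090 CPM against 1176 to 1444 CPM, the smooth muscle and pericyte markers in 7 of 8, at 282 to 338 CPM against 357 to 562 CPM, and the macrophage markers in 8 of 8, at 75.6 to 170.2 CPM against 143 to 189 CPM. Adipocyte markers were higher in 4 of 7 and satellite cell markers in 6 of 7. B cell markers were higher in 0 of 8, T and NK cell markers in 0 of 9, neutrophil markers in 1 of 8 and Schwann cell and nerve markers in 2 of 6. Without Ctrl 1 the counts were 2 of 8 for B cell and 9 of 9 for T and NK cell markers. They were 5 of 8 for neutrophil, 3 of 6 for Schwann cell and nerve and 6 of 7 for adipocyte markers. None of these markers was at 0 in every library. Without MP 1, the library with the most endothelial RNA, the log2 fold change of Akt1 was 0.74 (adjusted p = 0.127). The part of these cells in the member values was not tested.

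**Figure D3:**
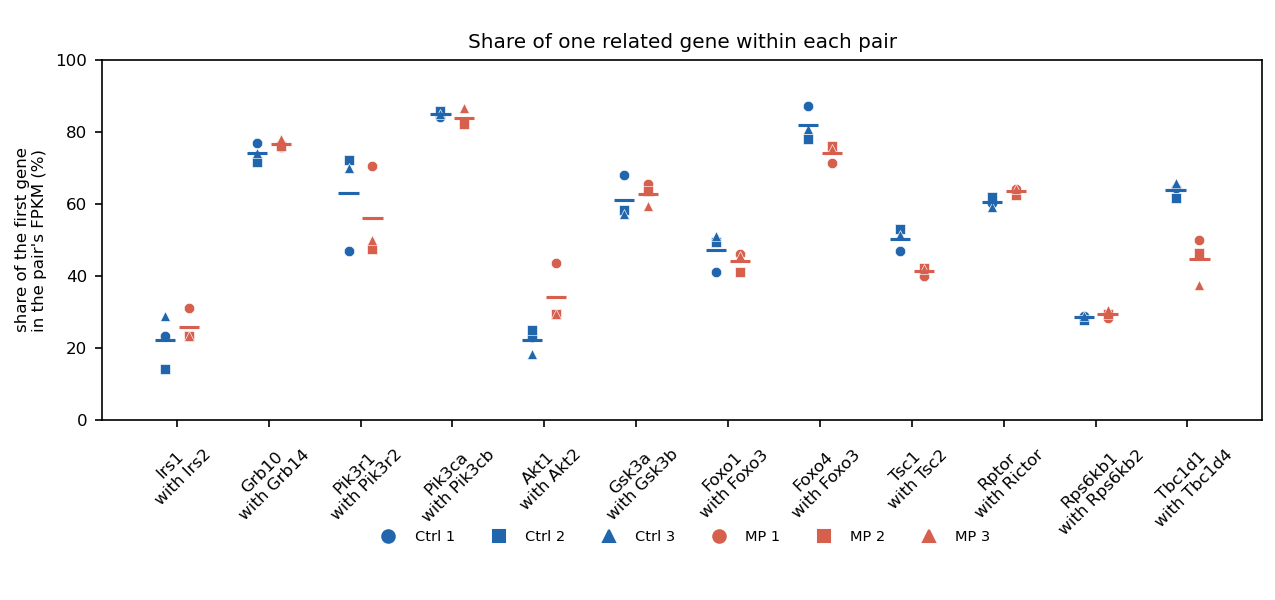
For 12 pairs of related members, the share of the first gene in the summed FPKM of the pair in each library, with bars at the group means (3 libraries each). The libraries labelled MP and Ctrl lie apart for Akt1 with Akt2, Foxo4 with Foxo3, Tsc1 with Tsc2, Rptor with Rictor, and Tbc1d1 with Tbc1d4, from 18.3% to 24.9% against 29.4% to 43.7% in the first of these. The pairs were chosen with earlier results of these data known, and Akt1, Foxo4 and Tbc1d1 lay apart by themselves. How often ratios of other gene pairs lie apart was not computed. Beside these 5 of 12 pairs, 27.4% of single genes did not overlap between the labels.

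Downstream of AKT, the FOXO factors, which drive genes of protein breakdown and fasting metabolism when nuclear, had unlike values. Foxo4 (ENSMUSG00000042903, chromosome X, 101254528 to 101260873) was the member with the highest FPKM in the libraries labelled Ctrl. It had 253, 259 and 296 CPM there and 137, 185 and 178 CPM in the libraries labelled MP. No libraries overlapped, with a 1.62-fold lower level in the libraries labelled MP. That is -0.70 ± 0.15 on the log2 scale, from -1.05 to -0.34, at adjusted p = 0.0766 with all libraries and 0.0276 without Ctrl 1. The edgeR adjusted p ran from 0.1532 to 0.2666 without each of the other libraries.

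Foxo1, the FOXO most studied in muscle wasting, had 65.1, 178 and 184 CPM in the libraries labelled Ctrl against 116, 101 and 122 CPM in those labelled MP. Ctrl 1 was the lowest of all 6 and the other libraries labelled Ctrl were the highest, so the groups overlapped only through that library. The log2 fold change was -0.34 ± 0.35 with all libraries (adjusted p = 0.615) and -0.69 ± 0.12 without Ctrl 1 (adjusted p = 0.0179). Foxo3, a close relative, had 81.1, 159 and 154 CPM against 119, 126 and 127 CPM, the same arrangement, with a log2 fold change of -0.09 ± 0.24, which was 0.10 with library totals, and -0.34 ± 0.10 without Ctrl 1 (adjusted p = 0.0602). Foxo6 was the least abundant member, at 1.70 to 3.54 CPM and 3.04 to 4.12 CPM. The 4 FOXO genes summed to 91.6, 116 and 128 FPKM in the libraries labelled Ctrl and to 68.8, 82.8 and 83.4 FPKM in those labelled MP, without overlap, and Foxo4 made up most of that sum. Of 5 such family sums, all described after the values were seen, IRS and FOXO did not overlap and the AKT, GSK3 and TBC1D sums did. Of single genes, 27.4% did not overlap. The separate sums hold Irs1, Irs2 and Foxo4, which did not overlap by themselves, while Foxo1, Foxo3 and Foxo6 each did. The AKT sum had means of 76.7 ± 10.3 and 90.01 ± 9.84 FPKM, the GSK3 sum 47.2 ± 7.94 and 37.2 ± 2.32 FPKM, and the TBC1D sum 31.9 ± 9.10 and 24.7 ± 1.44 FPKM (SD, n = 3 each).

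The glycogen synthase kinases, which AKT inhibits, were lower on average in the libraries labelled MP. Gsk3a had 76.5, 83.4 and 89.2 CPM against 66.7, 69.3 and 67.4 CPM, without overlap, and its difference on the log2 scale was -0.29 ± 0.11 (adjusted p = 0.185). Its libraries overlapped with scaling by totals. On GENCODE M21, 28.3% of its exon bases lie opposite 9130221H12Rik, which had 34 to 43 counts. Gsk3b had 121, 203 and 227 CPM against 119, 135 and 155 CPM and overlapped through Ctrl 1. Its log2 fold change was -0.43 ± 0.23 (adjusted p = 0.335) and -0.66 ± 0.14 without Ctrl 1 (adjusted p = 0.0279).

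Upstream of mTOR, the TSC complex, the brake on RHEB, showed opposite signs for its main partners. Tsc1, hamartin, had 91.0, 129 and 137 CPM in the libraries labelled Ctrl and 82.5, 97.1 and 100.2 CPM in those labelled MP (log2 fold change -0.35 ± 0.17). Tsc2, tuberin, the GTPase-activating partner, had 84.1, 92.9 and 105 CPM against 101, 108 and 112 CPM (0.19 ± 0.12). Each gene overlapped between the groups, with Ctrl 1 the exception for Tsc1 and Ctrl 3 for Tsc2. Within a library, the share of Tsc1 in the FPKM of the pair was 46.8%, 53.0% and 51.4% against 39.9%, 42.2% and 42.0%, and did not overlap. The log2 ratio of Tsc1 to Tsc2 differed by -0.53 (exact permutation p = 0.1, adjusted 0.240), and a ratio of this kind does not depend on how the libraries are scaled. With 3 against 3 that p is the smallest possible and follows from the lack of overlap, so it adds no support. The pair was chosen with earlier results known. Without Ctrl 1, Tsc1 was lower with a log2 fold change of -0.51 ± 0.12 (adjusted p = 0.0357). On GENCODE M21, 7.2% of the exon bases of Tsc2 lie opposite Pkd1. That gene had 1642, 1219 and 1374 counts in Ctrl 1, 2 and 3 and 2054, 1599 and 2189 in MP 1, 2 and 3. Tsc2 had 1965 to 2807 counts, and the part of Pkd1 reads in them was not tested. Rheb, the GTPase that activates mTOR complex 1, was at 78.0, 115 and 105 CPM against 81.5, 90.2 and 89.0 CPM and overlapped, with a log2 fold change of -0.19 ± 0.16, or -0.34 ± 0.10 without Ctrl 1 (adjusted p = 0.0683).

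Mtor, the kinase of both complexes, had 49.3, 52.8 and 62.2 CPM in the libraries labelled Ctrl and 74.6, 67.3 and 75.5 CPM in those labelled MP, 1.32-fold higher without overlap (log2 fold change 0.40 ± 0.13, adjusted p = 0.141). Akt1s1, which encodes PRAS40, an inhibitor of mTOR complex 1 that AKT phosphorylates, had 160.1, 198 and 192 CPM against 122, 143 and 139 CPM. It was 1.36-fold lower without overlap, at -0.45 ± 0.13 on the log2 scale, which passed without Ctrl 1 (adjusted p = 0.0276) and not with all libraries (0.129). The complex subunits differed little, with log2 fold changes of -0.04 for Rptor, which defines complex 1, -0.24 for Rictor, which defines complex 2, and -0.03 for Mlst8, common to both, of which Rptor and Mlst8 were positive with library totals.

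Deptor, a further inhibitor of mTOR, was at -0.01 (interval -0.39 to 0.36), with libraries from 91.3 to 130.4 CPM under the Ctrl label and from 95.6 to 122 CPM under the MP label. The S6 kinases, which carry the mTOR complex 1 signal to ribosomal protein S6, were both a little lower without overlap, though they overlapped with scaling by library totals. Rps6kb1 had 39.0, 43.1 and 40.2 CPM against 33.2, 35 and 37.4 CPM (-0.21 ± 0.11), and Rps6kb2 had 27.1, 31.9 and 27.9 CPM against 23.6, 23.6 and 23.9 CPM (-0.29 ± 0.12). On the GENCODE M21 annotation, whose model of Rps6kb2 has 5167 exon bases against a deposited gene length of 2445 and so is not the one counted, 23.7% of exon bases lie opposite exons of Coro1b and Ptprcap, and Ptprcap, a lymphocyte gene, had 614 counts in Ctrl 1 and 6 to 28 in the other libraries.

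For GLUT4 traffic, the RAB GTPase-activating proteins that AKT and AMPK inhibit had different values. Tbc1d1 (ENSMUSG00000029174, chromosome 5, 64156305 to 64351486), the form that predominates in fast muscle, had 107, 151 and 197 CPM in the libraries labelled Ctrl. In the libraries labelled MP it had 93.5, 79.5 and 71.6 CPM, all below the Ctrl libraries, among which Ctrl 1 was nearest. The means were 152 ± 44.5 and 81.6 ± 11.1 CPM (SD, n = 3 each), 1.86-fold lower. With all libraries the difference was -0.89 ± 0.22 on the log2 scale, from -1.41 to -0.38, and did not pass (adjusted p = 0.0949). Without Ctrl 1 it was -1.095 ± 0.16 and passed (0.0132).

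Tbc1d4, also called AS160, had 61.2, 97.1 and 106 CPM against 96.6, 94.9 and 124 CPM and overlapped, with a log2 fold change of 0.25 ± 0.22 that was 0.04 ± 0.14 without Ctrl 1. The share of Tbc1d1 in the FPKM of the pair was 64.5%, 61.7% and 65.7% in the libraries labelled Ctrl and 50.1%, 46.5% and 37.5% in those labelled MP. The groups did not overlap, and the SD of the share was 2.06% in the libraries labelled Ctrl and 6.49% in those labelled MP. The log2 ratio differed by -1.14 (exact permutation p = 0.1, the smallest possible, adjusted 0.240), the widest difference of the 12 pairs. This pair too was chosen with earlier results known, and Tbc1d1 by itself already lay apart. Rac1, a GTPase that remodels actin during insulin-stimulated uptake, Lnpep, the aminopeptidase IRAP that travels in GLUT4 vesicles, and Stx4a, the membrane SNARE syntaxin 4, had log2 fold changes of 0.02, 0.05 and -0.02, the last positive with library totals. Their intervals ran from -0.26 to 0.29, from -0.36 to 0.46 and from -0.31 to 0.26. Of the exon bases of Rac1, 51.4% lie opposite Daglb, which had 270 to 373 counts against 3904 to 4664 for Rac1.

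**Figure D4:**
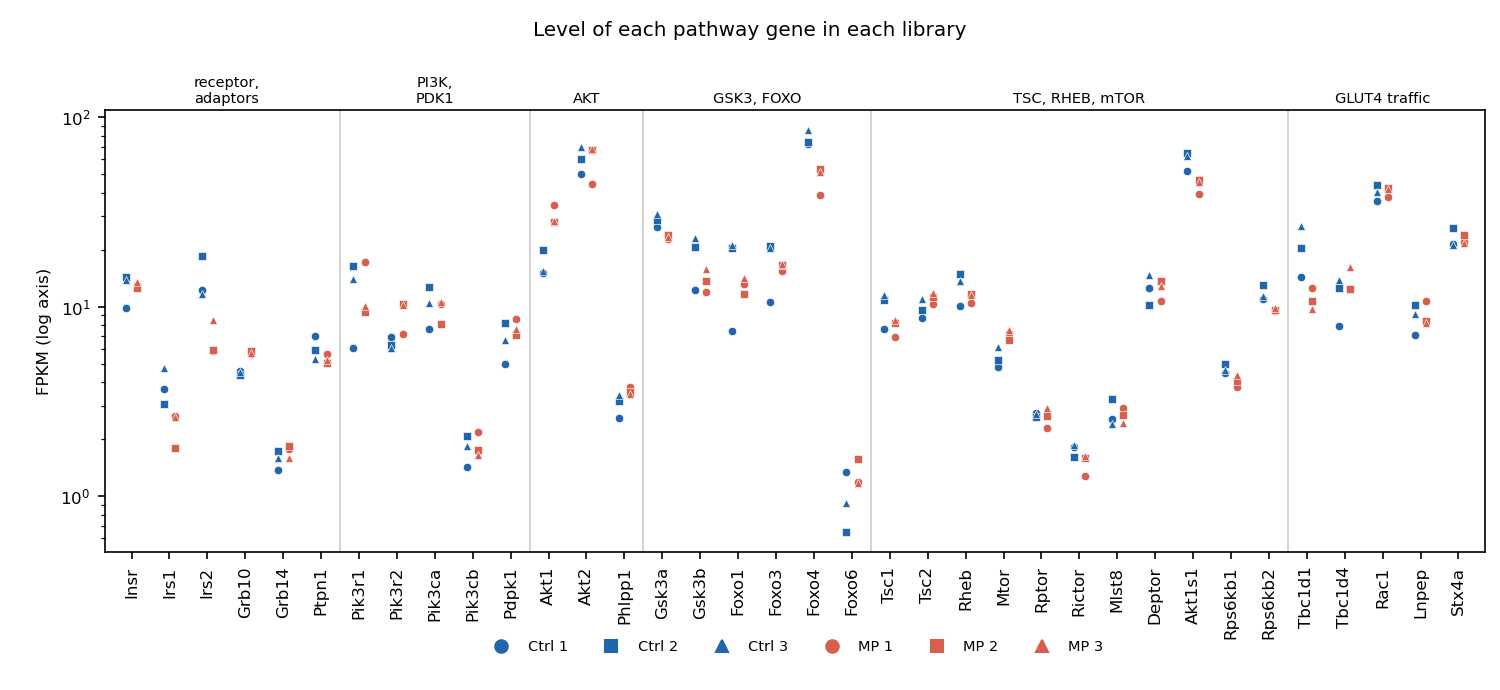
The level of each member per gene length, as deposited FPKM on a log axis, in each of the 6 libraries, by step of the pathway. Foxo4, Akt2 and Akt1s1 are the most abundant members under either label and Foxo6 the least, and Akt1 sits at 15.1 to 20.0 FPKM under the Ctrl label and at 28.0 to 34.4 FPKM under the MP label.

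Per length, Foxo4 at 77.1 ± 6.96, Akt2 at 59.9 ± 9.64 and Akt1s1 at 59.6 ± 6.89 FPKM led in the libraries labelled Ctrl, and the last of these did not differ from Akt2 beyond their spread. In the libraries labelled MP, Akt2 led at 59.8 ± 13.5 FPKM, followed by Foxo4 at 47.7 ± 7.74 and Akt1s1 at 43.8 ± 3.87 FPKM (SD, n = 3 each), with overlapping libraries. By mean FPKM, Akt1 ranked 10 of 36 under the Ctrl label and 5 under the MP label, Tbc1d1 ranked 7 and 17, and Irs2 ranked 12 and 25.

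A wider list of other pathway genes was examined beside the members, and 111 of them passed the filter. In edgeR 1 passed as higher and 0 as lower, against 0.788% and 0.508% of all genes, and the list's median log2 fold change was -0.02. The gene that passed was Ralgapa2 (ENSMUSG00000037110, chromosome 2, 146239879 to 146512344), the catalytic subunit of a RAL GTPase-activating complex that AKT phosphorylates in GLUT4 traffic. It had 13.7, 12.0 and 12.5 CPM in the libraries labelled Ctrl and 27.9, 25.1 and 22.0 CPM in those labelled MP, 1.96-fold higher with each library labelled MP above. The log2 fold change of Ralgapa2 was 0.97 ± 0.14 (adjusted p = 0.0309). The alternative catalytic subunit Ralgapa1 did not pass, at 37.2, 42.5 and 44.99 CPM against 62.8, 57.9 and 70.8 CPM (0.62 ± 0.13, adjusted p = 0.0685). The call of Ralgapa2 was lost in each of the fits without Ctrl 2, Ctrl 3, MP 1, MP 2 or MP 3, where the adjusted p ran from 0.0834 to 0.169, and stayed without Ctrl 1 (0.0124).

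The others of the 7 named by smallest p did not pass. Sgk1, an AGC kinase close to AKT that is also activated through PI3-kinase, had 196, 191 and 267 CPM against 125, 82.0 and 111 CPM (log2 fold change -1.04 ± 0.20, adjusted p = 0.0590). Ptprf, a receptor phosphatase that acts on the insulin receptor, was at 0.86 ± 0.17 on the log2 scale (adjusted p = 0.0623), and Myo1c, a motor of GLUT4 vesicles, at 0.47 ± 0.11 (0.0875). For Inpp4a, a phosphoinositide phosphatase, and Rragd, a RAG GTPase that brings mTOR complex 1 to the lysosome, the log2 fold changes were 0.44 ± 0.12 and 0.45 ± 0.13. Without Ctrl 1, 9 genes of the list passed as higher and 5 as lower, where 5.91% and 7.06% of all genes did.

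**Figure D5:**
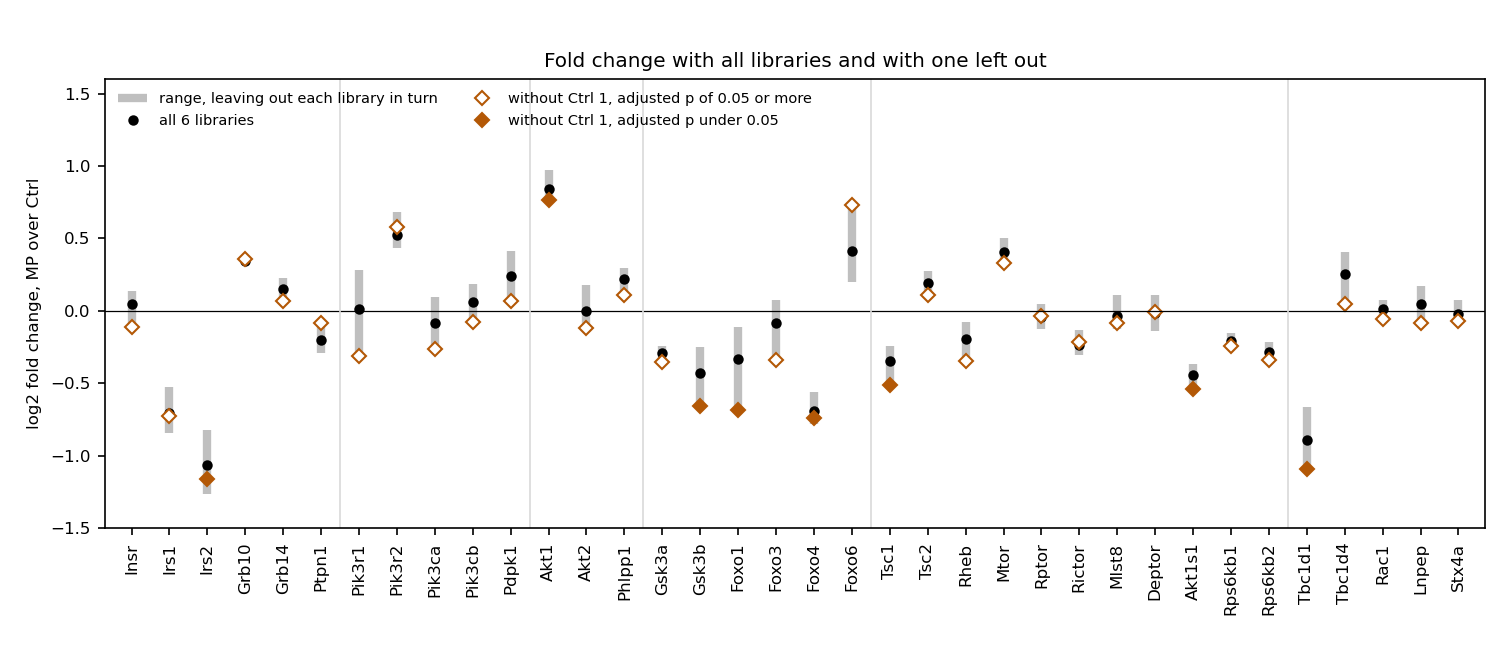
The log2 fold change of each member with all 6 libraries (black), without Ctrl 1 (diamonds, filled where the adjusted p is under 0.05) and the range over the fits that leave out each library in turn (grey bars). The filled diamonds are Irs2, Akt1, Gsk3b, Foxo1, Foxo4, Tsc1, Akt1s1 and Tbc1d1.

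Ctrl 1 was often the lowest library for these genes. It was so in 16 of 36 members, or 44.4%, against 19% of all genes tested, and the highest in 1 of 36, against 19.9%. Without it 26 of the 36 members had a negative log2 fold change and their median was -0.10, where the median of all genes was 0.01. That fit used TMM scaling, whose factors with all 6 libraries were 0.877 and 0.880 for Ctrl 2 and 3. Those of MP 1, 2 and 3 were 1.036, 1.057 and 1.071. With library totals and all 6 libraries, 22 of the 36 were positive, and no other scaling was run without Ctrl 1. Log2 fold changes without it that moved far and are not given above were 0.06 for Grb14, -0.08 for Ptpn1, 0.11 for Tsc2 and 0.73 for Foxo6, and Akt2, Rac1, Lnpep and Stx4a were at -0.12, -0.05, -0.09 and -0.07. Among the 6 fits that each left out a library, the 8 member calls all came in the fit without Ctrl 1, and no member passed in the other 5. The direction of Irs1, Irs2, Grb10, Pik3r2, Akt1, Foxo4, Mtor, Akt1s1 and Tbc1d1 was the same in all 6 fits. Since their libraries did not overlap, leaving out a library could hardly change it, so this adds no support. Grb14, Ptpn1, Pdpk1, Foxo1 and Foxo6, among others whose libraries overlapped, also kept their direction in all 6. The B and T cell markers given above move with Ctrl 1, and the 10 fibre markers summed to 110800 CPM in it and to 111050 CPM in MP 1, against 126180 to 162090 CPM in the other 4. The part of either in the member values was not tested.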

How the data were processed

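Gastrocnemius RNA was counted in 6 libraries, 3 labelled Ctrl and 3 labelled MP. Groups and replicate numbers came from the titles. The submitters' processing notes name HISAT2 2.0.5, featureCounts 1.5.0-p3 and build GRCm38. Which strand setting and annotation were used is not given in the sources used here. Without strand, reads of opposite genes cannot be told apart, and 14 of the 36 members share exon bases with another gene on GENCODE M21. The authors deposited whole-number counts per gene and FPKM values, which are per gene length and library size, per the file headers. Set against the deposited counts, the FPKM imply library sizes scaled between libraries. The deposited gene length, another column of the authors' table, was used in 1 alternative.

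All genes were fitted together with edgeR 4.0.16 in R 4.3.3 (filterByExpr, TMM scaling, quasi-likelihood test with legacy = FALSE), with two-sided p-values and Benjamini-Hochberg adjustment at 0.05. The filter was applied anew in each fit that left out a library. CPM values use TMM library sizes, and errors after log2 fold changes are SEs. Ratios of related genes within a library were compared by exact permutation. The edgeR fit was tested on simulated counts, in which no library stood apart, and the permutation test on made-up values. The other steps were not tested in this way. Alternatives used DESeq2 1.42.0, limma 3.58.1, other scalings, filters, thresholds and a replicate block. The members, lists and pairs were chosen with earlier results of these data known. Named genes are all 36 members, the genes the transgene is named for and, of the wider list, genes past the threshold and the 6 next by p.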

Additional observations from a re-analysis of the deposited data

How the results depend on the processing

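With 3 libraries a group, the count of calls rests on single libraries. The 194 genes past the threshold became 1065 with DESeq2, 739 at an adjusted p of 0.10, 124 with no filter beyond 1 count, 112 and 121 with limma on log2(FPKM + 1) and log2(FPKM + 0.1), and 0 to 1981 without each library in turn. The count of members higher, 0, became 1 with DESeq2, at an adjusted p of 0.10, with median-of-ratios scaling, library totals, upper-quartile scaling and a minimum of 1 CPM in 3 libraries, and 0 to 1 without each library. The count of members lower, 0, became 5 with DESeq2 and 3 at an adjusted p of 0.10, and 0 to 7 without each library. In the wider list 1 higher became 5 with DESeq2, 4 at an adjusted p of 0.10, 2 with library totals and upper-quartile scaling, 0 with both FPKM fits and 0 to 9 without each library, and 0 lower became 1 with DESeq2 and at an adjusted p of 0.10, and 0 to 5 without each library.

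With the replicate number as a block, 5 genes passed, none of the members and 0 of the wider list, and the log2 fold change of Ralgapa2 had an adjusted p of 0.0870. The labels say only that samples share a number. Deviations of same-numbered libraries correlated at 0.00915, -0.138 and 0.178, so the numbers were not taken as pairs, and libraries did not all correlate best with their own number.

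Members near 0 on the log2 scale changed sign. With library totals Pik3ca was at 0.089, Akt2 at 0.16, Foxo3 at 0.10, Rptor at 0.10, Mlst8 at 0.12, Deptor at 0.13 and Stx4a at 0.13. With upper-quartile scaling Akt2 was at 0.044, Mlst8 at 0.012, Deptor at 0.026 and Stx4a at 0.022. With no filter Akt2 was at 0.012 and Deptor at 0.0020. The log2 fold change of Akt2 was 0.0043 with DESeq2 and with median-of-ratios scaling and at 0.00126 with the minimum of 1 CPM. Leaving out each library gave ranges of -0.11 to 0.14 for Insr, -0.31 to 0.28 for Pik3r1, -0.26 to 0.10 for Pik3ca, -0.077 to 0.19 for Pik3cb, -0.12 to 0.18 for Akt2, -0.34 to 0.072 for Foxo3, -0.13 to 0.050 for Rptor, -0.12 to 0.11 for Mlst8, -0.14 to 0.11 for Deptor, -0.054 to 0.078 for Rac1, -0.087 to 0.17 for Lnpep and -0.084 to 0.077 for Stx4a. The cause was not tested.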
